A study of Mus musculus with 6 samples.

Results

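The mouse genes read here are the G protein-coupled receptors, taken as the 233 rows, of 22116 rows with a gene name in a table of RNA-seq read counts, whose symbols match a fixed pattern of receptor names. The pattern takes the numbered orphan receptors (Gpr), the Gprc5 and adhesion (Adgr) groups and the named receptors for amines, peptides, nucleotides, lipids, proteases, metabolites and chemokines. It leaves out Cxcr3, the receptor kinases spelled Adrbk and the Lgr genes. It also takes 3 rows that are not such receptors, the serotonin-gated ion channels Htr3a and Htr3b and Gpr15lg, which codes for a secreted ligand. These are set apart from the receptor classes but stay in all counts over the family, so Gpr15lg is among the tested and the higher members. A further 8 numbered Gpr genes act at inner membranes or are not known as classical receptors, and these are kept as members too. No expression value enters the pattern, but the family was picked after a set of receptor and ligand genes had stood out in the same comparison, so all counts and changes below describe these libraries and support nothing about the family.

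4T1 cells, a mouse mammary gland carcinoma line, were given the vehicle DMSO in the control group or 10 µM P3FI-90, an inhibitor of the histone demethylase KDM3B, in the treated group, for 24 h in both. RNA of each group was sequenced in 3 libraries, and the authors deposited whole-number read counts per gene without normalization. The labels give no genetic change for either group, and nothing in the labels says whether the 3 libraries of a group came from separate cultures, so the spread between them may be technical. All statements concern 1 line in culture, at 1 dose and 1 time.

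G protein-coupled receptors are membrane proteins with a bundle of helices across the membrane that bind a ligand outside the cell and switch on G proteins inside it. The alpha subunit of the G protein decides the arm that follows, with Gs raising and Gi lowering cyclic AMP, Gq starting phospholipase C, and the G12 and G13 pair acting on small GTPases of the cytoskeleton. Arrestins and receptor kinases end the signal, and RGS proteins speed the return of the alpha subunit to rest. In carcinoma cells, receptors for thrombin, lysophosphatidic acid and extracellular nucleotides are known as inputs for migration and survival.

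The start regions of the receptors with the largest fitted changes are shown first, so that the letters at hand can be set beside the counts. Each is 250 bases before to 50 bases after the RefSeq transcript start, read on the gene's strand from the RefSeq table of build GRCm38.p6. The submitters' processing notes name GRCm39, so these positions belong to the older build only. Capitals mark every CG pair, the letters that DNA methylation acts on in mammals. The 3 largest fitted rises among receptors whose groups did not overlap were P2ry14, Lpar3 and Adra1b. P2ry14 has 4 start regions in the table and Adra1b 2, of which the first is printed.

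P2ry14, chr3:59153443-59153742, minus strand: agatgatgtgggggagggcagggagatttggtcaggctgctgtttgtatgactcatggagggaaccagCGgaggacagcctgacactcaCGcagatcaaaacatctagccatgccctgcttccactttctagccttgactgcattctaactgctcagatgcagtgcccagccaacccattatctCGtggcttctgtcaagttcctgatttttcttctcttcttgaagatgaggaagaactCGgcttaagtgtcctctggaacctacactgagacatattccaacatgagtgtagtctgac

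Lpar3, chr3:146220711-146221010, plus strand: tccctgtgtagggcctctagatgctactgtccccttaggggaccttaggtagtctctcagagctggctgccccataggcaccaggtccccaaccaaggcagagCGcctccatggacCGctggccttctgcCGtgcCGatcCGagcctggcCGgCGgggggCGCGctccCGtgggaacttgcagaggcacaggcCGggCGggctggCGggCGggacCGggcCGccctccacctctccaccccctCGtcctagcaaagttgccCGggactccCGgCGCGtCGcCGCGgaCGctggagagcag

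Adra1b, chr11:43901188-43901487, minus strand: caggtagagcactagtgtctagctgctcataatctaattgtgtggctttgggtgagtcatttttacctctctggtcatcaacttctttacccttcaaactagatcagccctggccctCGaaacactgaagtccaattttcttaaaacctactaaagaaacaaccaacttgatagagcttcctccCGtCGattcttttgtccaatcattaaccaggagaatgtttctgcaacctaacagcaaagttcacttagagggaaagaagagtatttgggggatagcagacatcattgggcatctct

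For the falls, the table has no entry for Adgre5, F2rl1 and Gpr162. The 3 next largest falls with an entry were Adgra3, Lpar6 and P2ry2, and for P2ry2, which has 2 start regions, the first is printed.

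Adgra3, chr5:50058947-50059246, minus strand: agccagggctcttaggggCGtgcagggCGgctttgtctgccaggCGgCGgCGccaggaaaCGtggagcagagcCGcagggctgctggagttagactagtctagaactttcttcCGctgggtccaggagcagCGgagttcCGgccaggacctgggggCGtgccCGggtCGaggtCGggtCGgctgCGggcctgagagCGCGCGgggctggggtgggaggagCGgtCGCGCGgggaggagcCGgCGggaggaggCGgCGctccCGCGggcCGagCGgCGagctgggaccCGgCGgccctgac

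Lpar6, chr14:73237641-73237940, plus strand: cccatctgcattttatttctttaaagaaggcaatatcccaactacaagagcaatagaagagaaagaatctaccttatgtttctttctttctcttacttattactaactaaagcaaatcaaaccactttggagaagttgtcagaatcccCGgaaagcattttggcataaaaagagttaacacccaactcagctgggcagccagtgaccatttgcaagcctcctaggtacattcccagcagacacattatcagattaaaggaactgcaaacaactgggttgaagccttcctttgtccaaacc

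P2ry2, chr7:101012004-101012303, minus strand: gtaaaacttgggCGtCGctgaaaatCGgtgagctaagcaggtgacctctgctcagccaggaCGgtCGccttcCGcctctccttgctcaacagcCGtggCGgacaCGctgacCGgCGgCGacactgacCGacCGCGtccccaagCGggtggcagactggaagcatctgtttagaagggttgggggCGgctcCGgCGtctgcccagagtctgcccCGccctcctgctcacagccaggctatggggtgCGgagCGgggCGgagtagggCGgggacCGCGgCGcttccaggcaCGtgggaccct

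Both directions hold a start region dense in CG pairs and one that is nearly free of them. Lpar3 has 25 CG pairs and Adgra3 has 34, while Lpar6 has 1 and the printed first region of Adra1b has 3. Over the 2 start regions of Adra1b the mean was 15.5 CG pairs, so that gene is not poor in them at both. Over the whole family, the ratio of observed to expected CG pairs had a median of 0.606 in the 25 higher genes with an entry and of 0.560 in the 12 lower genes with one. It was 0.281 in the 54 detected but untested members and 0.366 in the 66 members at 0 that had an entry, against 0.758 over the 9589 tested genes of the table that had one. The cyclic AMP response element TGACGTCA, searched on both strands, was in 0 of 42 start regions of higher members and 0 of 15 of lower members, and in 2.38% of the 19011 start regions of all genes in the count table. The STAT motif TTCNNNGAA was in 2 of the 42 and 1 of the 15, against 7.40%. The interferon-stimulated motif, GAAA repeated after any 2 bases, was in 3 of the 42 and 0 of the 15, against 3.21%. In 24 of 32841 start regions a match of the interferon-stimulated motif overlapped one of the STAT motif. A match or its absence describes these letters and no more.

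Most of the family was silent or barely counted in 4T1 cells. Of the 233 members, 90 (38.6%) were at 0 in all 6 libraries, against 29.2% of all named rows. A further 78 were detected but stayed under edgeR's filter on low counts, and none of these exceeded 40 counts in a library. The other 65 were tested, and their median DMSO level was 167 normalized counts (raw counts brought to a common depth by TMM), against 1235 over the 12288 genes tested. Of the 65, 47 had at least 10 counts in every library and 16 had them in every P3FI-90 library only, so those 16 were admitted through the group in which they were high. Another 1 was admitted through DMSO only, and 1 had a library under 10 counts in both groups.

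Among the 65 tested members, 28 were higher and 19 lower after P3FI-90 and 18 were neither, at an adjusted p under 0.05 in edgeR's quasi-likelihood test with Benjamini-Hochberg adjustment over all genes tested. That is 72.3% of members, beside 79.3% of all genes tested (39.9% higher and 39.4% lower). Past an absolute log2 fold change of 1 as well, 21 members were higher and 7 lower, together 43.1%, beside 23.3% of all genes (12.7% higher and 10.6% lower). The groups did not overlap for 52 members (80.0%), beside 81.2% of all genes. Nothing is read from these shares, since the family was picked from this comparison and since the tested members had far fewer counts than most genes. Without the first DMSO library, the number of members higher by more than 1 was 32 in place of 21, among 78 tested members in place of 65.

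The filter bears on the rises at low levels. The plot of change against level shows the members with few counts mostly above 0 and those with the most counts mostly below it. Among the 16 members with a mean under 30 normalized counts over the 6 libraries, 9 were higher and 0 lower, and their median log2 fold change was 1.83. All 9 were among the 11 of these 16 that had at least 10 counts in every P3FI-90 library only, so they were admitted through the group in which they were high and nothing is read from their direction. Of the 3 with at least 10 counts in every library, 0 were called. All 882 genes of that level had 333 higher, 105 lower and a median of 0.67. Among the 24 members between 30 and 300, 12 were higher and 7 lower, beside 670 higher and 570 lower of all 1888 genes of that level. Of these 24, Adra1b, Galr2, Bdkrb1, Gpr35 and Gpr3 were also admitted through P3FI-90 only and all were higher, so nothing is read from this split. Among the 25 members at 300 or more, 7 were higher and 12 lower with a median of -0.10. All 9518 genes of that level had 3905 higher, 4166 lower and a median of -0.03. Over all 65 tested members the median log2 fold change was 0.28, against 0.01 over all genes. With members restricted to those with at least 10 counts in every library, that median was -0.09, and without single libraries it ranged from 0.35 to 0.73, without the first DMSO library being the highest. The summed normalized counts of all 233 members went from between 45886 and 48424 in the DMSO libraries to between 39703 and 40582 in the P3FI-90 libraries. This sum depends on the scaling, since the TMM factors were 0.927 to 0.930 in the DMSO libraries and 1.076 to 1.078 in the P3FI-90 libraries. Sums under total-count scaling were not computed, so no loss over the family is read from it. The same limit holds for the summed counts of each class below.

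**Figure D1:**
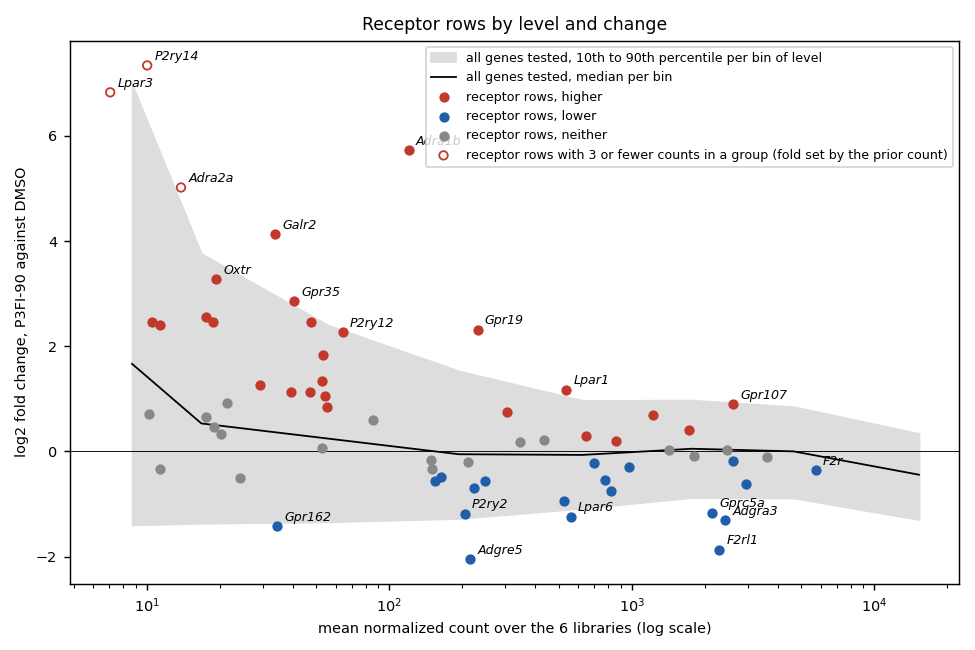
Each point is 1 of the 65 tested members, with its mean normalized count over the 6 libraries on a log axis and its fitted log2 fold change of P3FI-90 against DMSO, and the grey band and black line give the 10th to 90th percentiles and the median of all genes tested in bins of level. Red points are higher, blue lower and grey neither, and open circles are the 3 members with 3 or fewer counts over the DMSO libraries, whose height depends on the fit's prior count. Adra1b at 5.73 and F2rl1 at -1.87 lie outside the band at their levels, and no member under 30 normalized counts was lower.

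In what follows, values are normalized counts listed in the order of replicates 1, 2 and 3, and a change is the fitted log2 fold change of P3FI-90 against DMSO with its standard error (SE). Rose and fell are used only of members past the adjusted p of 0.05. Scaling by total counts in place of TMM moves the median change of all genes from 0.01 to 0.23 and carries every change upward with it, so small falls that did not pass under it are named. With limma on log2(CPM + 1), rises from low counts keep their call but are smaller, such as 2.78 for Adra1b, 1.38 for Galr2 and 0.87 for Oxtr. Since the cells were sequenced in bulk, fewer cells with a transcript and less RNA per cell cannot be told apart. Members named to complete a class, outside the rule for named genes, were chosen after their values were seen.

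F2r, a receptor for proteases, was the most counted member of the family in both groups. Receptors of this class carry their own ligand, which a protease frees by cutting the outer end of the protein. F2r, the thrombin receptor PAR1, was read at 6475, 6361 and 6450.1 in the DMSO libraries and at 5002, 5115 and 4962 in the P3FI-90 libraries. F2rl1, the trypsin and tryptase receptor PAR2, was read at 3784, 3447 and 3579 in DMSO and at 988, 1085 and 877 after P3FI-90. Every P3FI-90 library lay under every DMSO library for both genes. F2r fell by a log2 fold change of 0.35 (SE 0.033), or 0.14 under total-count scaling, and F2rl1 fell by 1.87 (SE 0.071), that is 3.66-fold. F2r and F2rl1 are neighbours on chromosome 13. Their sum dropped from between 9813 and 10258 to between 5838 and 6209 normalized counts. The share of F2rl1 in the class went from between 35.1% and 36.9% to between 15.02% and 17.5%. Per kb of transcript, F2r was the highest of all members in both groups, at 1927 normalized counts in DMSO and 1507 after P3FI-90. The other members of the class, F2rl2 and F2rl3, had 0 and 13 counts over all 6 libraries.

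The receptors for lysophospholipids moved in both directions. Lysophosphatidic acid acts on the Lpar receptors and sphingosine-1-phosphate on the S1pr receptors, and both lipids are made in serum and by tumour cells. Lpar1 was read at 299, 335 and 352 in DMSO and at 766, 788 and 671 after P3FI-90, and rose by 1.18 (SE 0.099). Lpar2 was read at 968, 824 and 996 and 1495, 1427 and 1609, and rose by 0.70 (SE 0.076). For both, the P3FI-90 libraries lay wholly above the DMSO libraries. Lpar3 had 0 counts in all DMSO libraries and 15, 13 and 17 counts in the P3FI-90 libraries. That is at least 13.1-fold higher against a floor of 3 counts over the DMSO group (counting error only, with each count taken as independent). Lpar6, a lysophosphatidic acid receptor from the nucleotide receptor branch, went the other way. It was read at 780.2, 782 and 803 in DMSO and at 258, 323 and 417 after P3FI-90, and fell by 1.25 (SE 0.13), with the P3FI-90 libraries spread more widely than the DMSO libraries.

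S1pr2, which can act through G12 and G13, was the most counted receptor of the class in both groups, at 1901, 1826 and 1869 in DMSO and 1726, 1788 and 1762 after P3FI-90. The groups did not overlap, yet the change of -0.09 (SE 0.048) did not pass (adjusted p = 0.117 by edgeR's quasi-likelihood test). Its direction depends on the scaling, since it passed as 0.13 under total counts and as -0.12 under upper quartiles. S1pr1, the receptor that guides lymphocytes out of lymph nodes, stayed low at 22, 15 and 4 counts in DMSO and 34, 36 and 20 after P3FI-90, and its groups overlapped. Lpar6 gave 20.1% of the counts of the class in DMSO and 7.58% after P3FI-90, while Lpar1 went from 8.36% to 16.9% and Lpar2 from 23.7% to 34.4%. Per kb, Lpar6 lay near Lpar2 in DMSO, at 146 and 159 normalized counts, and far under it after P3FI-90, at 61.6 and 259.

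Lpar6 lies within the span of Rb1 on the opposite strand, and the 2 genes share some exon positions. Of the 50-base windows of Lpar6, 6.60% recur in another gene. Rb1, the retinoblastoma gene, rose by 1.23 (SE 0.085) on the log2 scale. The count of Lpar6 thus fell while that of its host rose. The strandedness of the counting is not given in the sources used here, so reads of overlapping genes on opposite strands cannot be told apart in general, and 22 of the 65 tested members share some exon sequence with another gene in the GENCODE M21 annotation. For 8 of these 22, and for Gpr137b besides, more than 10% of the 50-base windows along their transcripts also occur in another gene.

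The receptors for adenosine and nucleotides also went both ways. P2ry2, which binds ATP and UTP, was read at 290.4, 295 and 265 in DMSO and at 125, 114 and 135 after P3FI-90, and fell by 1.18 (SE 0.15). P2ry12, the ADP receptor of platelets and microglia, was read at 12.1, 31.3 and 23.5 and 97.3, 95.3 and 126, and rose by 2.26 (SE 0.32), that is 4.80-fold. Neither gene's groups overlapped. P2ry14, the receptor for UDP-glucose, had 0 counts in all DMSO libraries and 22, 31 and 12 counts after P3FI-90, at least 18.6-fold higher against the floor. Adora1, the adenosine receptor that lowers cyclic AMP through Gi, was the most counted of the class in both groups and was read at 304, 332 and 338 and 368, 367 and 360.5. Its libraries after P3FI-90 all lay above those of DMSO, but the change of 0.17 (SE 0.11) did not pass. P2ry6, the UDP receptor, had 30, 22 and 28 counts in DMSO and 15, 24 and 25 after P3FI-90, a difference that did not pass. The neighbour of P2ry6 on chromosome 7 is P2ry2.

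The class as a whole summed to between 649.7 and 689 normalized counts in DMSO and between 652 and 683 after P3FI-90. These sums depend on the scaling, and total-count scaling, which carries changes upward, was not applied to them. Under TMM scaling the class total thus moved little while its make-up changed. P2ry2 went from 42.5% to 18.6% of that total and P2ry12 from 3.34% to 15.8%. P2ry12 and P2ry14 lie within the gene Med12l on the opposite strand, next to P2ry13 and Gpr171. Med12l, a Mediator subunit, had 0, 2 and 0 counts in DMSO and 29, 29 and 14 after P3FI-90. P2ry13 and Gpr171 were at 0 in every library. P2ry12 and Med12l share exon positions on opposite strands, but 0% of the 50-base windows of P2ry12 recur in another gene.

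**Figure D2:**
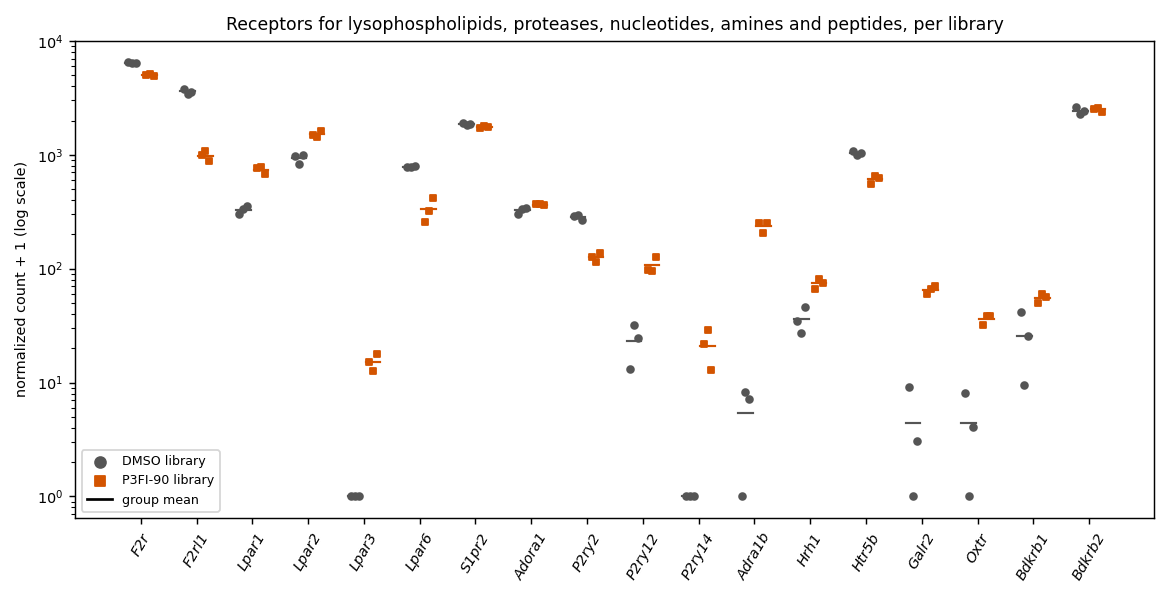
Normalized counts plus 1, on a log axis, of 18 receptors for proteases, lysophospholipids, adenosine and nucleotides, amines and peptides, with DMSO libraries as grey circles, P3FI-90 libraries as orange squares and a bar at each group mean. F2rl1, Lpar6, P2ry2 and Htr5b sit lower after P3FI-90, Lpar1, Lpar2, P2ry12, Adra1b and Galr2 sit higher, and S1pr2 and Bdkrb2 sit at nearly the same level in both groups.

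Among the amine receptors, the alpha adrenoceptors Adra1b and Adra2a, which bind adrenaline and noradrenaline, rose from low levels while the most counted receptor of the class fell. Adra1b, the alpha-1B adrenoceptor that acts through Gq, had 0, 6 and 6 counts in DMSO and 269, 228 and 255 after P3FI-90. It rose by 5.73 (SE 0.4), the largest change of a member with more than 3 counts over each group, that is 53.2-fold. Adra2a, the alpha-2A adrenoceptor that acts through Gi, had 2, 0 and 0 counts in DMSO and 36, 33 and 18 after P3FI-90, a ratio of 37.8 with an exact Clopper-Pearson 95% counting interval from 10.2 to 317. Its 2 counts in DMSO came from 1 library.

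Hrh1, the histamine receptor of allergy, was read at 33.4, 26.5 and 44.9 in DMSO and 65.5, 80.02 and 74.5 after P3FI-90, and rose by 1.06 (SE 0.28). Htr5b, a serotonin receptor that is a working gene in mouse, was read at 1078, 997 and 1028 and 556, 652 and 628, and fell by 0.76 (SE 0.078) without overlap between the groups. It gave 92.5% of the counts of the amine class in DMSO and 58.3% after P3FI-90, while Adra1b went from 0.398% to 22.4%. Chrm1, the M1 muscarinic acetylcholine receptor, was under the filter with 0 counts in all DMSO libraries and 14, 36 and 8 after P3FI-90, at least 16.5-fold higher against the floor, with the second library far above the others. Htr1d was neither, and its groups overlapped. A further 28 rows of the class, with the dopamine receptors among them, were at 0 or under the filter.

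Of the peptide receptors, 4 were tested. Galr2, a galanin receptor, had 8, 0 and 2 counts in DMSO and 63, 72 and 71 after P3FI-90, and rose by 4.14 (SE 0.56), that is 17.6-fold. Oxtr, the oxytocin receptor of uterus and mammary myoepithelium, had 7, 0 and 3 counts and 33, 42 and 38 counts, and rose by 3.27 (SE 0.62). Both had a DMSO library at 0 and P3FI-90 libraries that lay close together. Bdkrb2, the bradykinin receptor that most tissues carry, was the fourth receptor of the family per kb in DMSO and the second after P3FI-90, at 645 and 659.6 normalized counts. Its libraries overlapped at 2649, 2270.2 and 2419 in DMSO and 2532, 2579 and 2393 after P3FI-90, and the change was 0.03 (SE 0.059). Bdkrb1, the bradykinin receptor that appears with inflammation and its neighbour on chromosome 12, had 40, 7 and 24 and 52, 66 and 56 counts and rose by 1.12 (SE 0.42). The call on Bdkrb1 was lost without the second or the third DMSO library, at 0.73 and 1.11, and without the second or the third P3FI-90 library, at 1.05 and 1.11.

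The adhesion receptors, which join a long outer region for cell contacts to the helices, numbered 27, of which 12 were tested. Of these, 6 fell, 3 rose and 3 were neither, beside 39.4% lower and 39.9% higher of all genes tested, and nothing is read from so few genes. Adgra3, an orphan of this group, was read at 3519, 3364 and 3488 in DMSO and at 1346, 1474 and 1348 after P3FI-90, and fell by 1.31 (SE 0.053). Adgre5, the leukocyte and carcinoma antigen CD97, was read at 389.6, 258 and 394 and 78.6, 97.1 and 76.4. It fell by 2.05 (SE 0.19), the lowest fitted change of the family, and 16.5% of its 50-base windows recur in other genes, with Ddx39, not analysed here, overlapping it on the opposite strand. Adgrl2, a latrophilin, was read at 3590.4, 3669.7 and 3538 and 2381, 2208 and 2411, and fell by 0.63 (SE 0.048).

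Adgrg3 went from 692 ± 54.5 to 360.3 ± 33.4 (mean ± SD, n = 3 per group) and fell by 0.94 (SE 0.1). Adgra2, a co-receptor for Wnt7 in vessels, went from 276 ± 4.96 to 171 ± 3.57 and fell by 0.69 (SE 0.13). Adgrf5, known for the control of lung surfactant, fell by 0.55 (SE 0.14). Adgrl1, the latrophilin next to Adgre5 on chromosome 8, was the most counted of the class and did not pass. It was read at 3724, 3493 and 3976 and 3339.5, 3543 and 3533 with a change of -0.10 (SE 0.05) (adjusted p = 0.071 by edgeR's quasi-likelihood test), and the change was 0.11 under total-count scaling but passed as -0.14 under upper quartiles. Adgrl3, another latrophilin, had 37, 26 and 20 and 86, 79 and 77 counts and rose by 1.35 (SE 0.29). Adgrb2, which brain cells carry, had 20, 21 and 24 and 88, 63 and 112 counts and rose by 1.82 (SE 0.32).

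Adgrg6, a receptor needed for myelin, went from 799 ± 90.01 to 922 ± 21.3 and rose by 0.21 (SE 0.082). That call was lost under upper-quartile scaling, at 0.17, and without the first or the second DMSO library or the first or the third P3FI-90 library, at 0.13 to 0.20. Adgrg1, the neighbour of Adgrg3 on chromosome 8, and Adgrg5, the neighbour of Adgrg1, were neither. Adgre4, Adgrf2 and Adgrv1 were at 0 in all DMSO libraries and under the filter. Adgre4 had 11, 3 and 18 counts after P3FI-90, Adgrf2 7, 12 and 14, and Adgrv1, a long receptor of inner ear hair cells, 16, 10 and 16. Against the floor they were at least 9.46-fold, 9.59-fold and 12.2-fold higher. Summed over the class, the normalized counts went from between 13052 and 13856 to between 9292 and 9432.

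**Figure D3:**
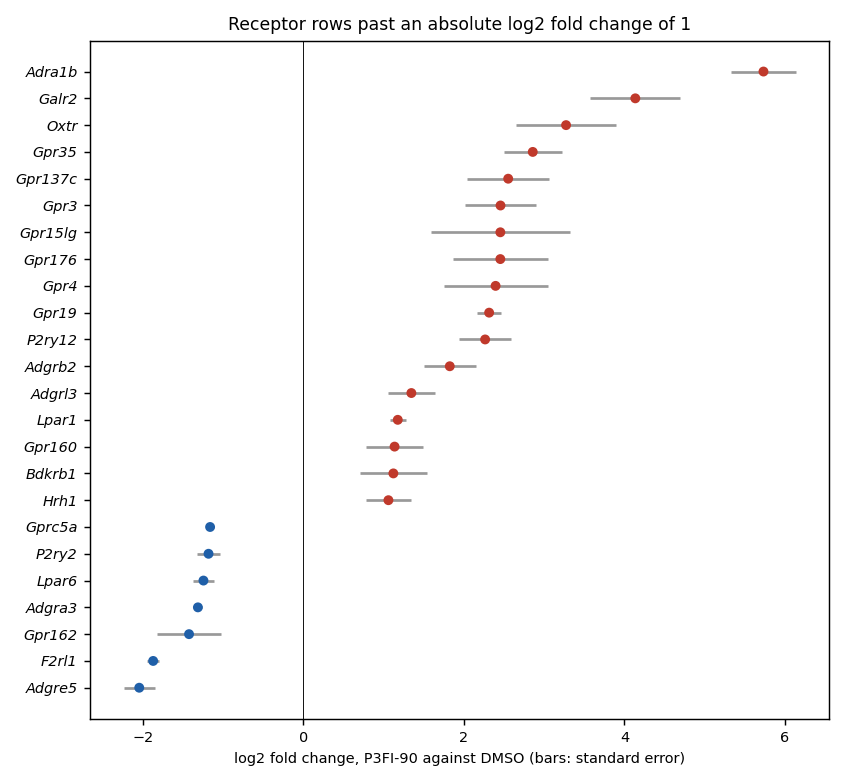
Fitted log2 fold changes (horizontal axis, P3FI-90 against DMSO) with standard errors as bars for 24 of the 25 members past an adjusted p of 0.05 and an absolute change of 1 that had more than 3 counts over each group, red where higher and blue where lower. Adra1b is at the top at 5.73 and Adgre5 at the bottom at -2.05, and the bars are widest for members with few counts such as Gpr15lg.

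The Gprc5 receptors, orphans that retinoic acid induces, fell where they could be tested. Gprc5a was read at 3109.8, 2945 and 2808 in DMSO and 1359, 1305 and 1294 after P3FI-90, with no overlap, and fell by 1.16 (SE 0.054), that is 2.24-fold. Per kb it was the second of the family in DMSO, at 1418 normalized counts, and the third after P3FI-90, at 633. Gprc5b was read at 201, 182 and 191 and 132, 131 and 144, and fell by 0.50 (SE 0.16), a call that total-count scaling lost at -0.28. Gprc5c and Gprc5d had 0 counts over the DMSO libraries and 22 and 7 over the P3FI-90 libraries.

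The numbered Gpr genes of inner membranes were all tested. These 8 genes carry a receptor-like name but act at the Golgi apparatus or lysosome, or are not known as classical receptors, and 5 rose, 2 fell and 1 was neither, beside the same 39.9% and 39.4% of all genes. Gpr107, a Golgi protein, was read at 1805, 1793 and 1861 in DMSO and 3334, 3321 and 3543 after P3FI-90, and rose by 0.90 (SE 0.048). Gpr89, a Golgi anion channel that sets its pH, was read at 1506, 1509 and 1414 and 1865, 2019 and 1995, and rose by 0.41 (SE 0.053). Gpr155, a lysosomal cholesterol sensor, was read at 232, 234 and 219 and 355, 414 and 384, and rose by 0.75 (SE 0.12). The groups of these 3 genes did not overlap, and 23.8% of the windows of Gpr89 recur in other genes.

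Gpr137, Gpr137b and Gpr137c are lysosomal paralogues that did not move together. Gpr137c had 5, 5 and 4 counts in DMSO and 22, 37 and 37 after P3FI-90, and rose by 2.55 (SE 0.51). Gpr137 went from 583 ± 93.8 to 707 ± 34.4 with overlapping groups and rose by 0.28 (SE 0.1), while Gpr137b went from 2797 ± 251 to 2453 ± 90.7 and fell by 0.19 (SE 0.062). Of the windows of Gpr137b 28.6% recur in another gene, so its count is uncertain, and its change was 0.02 under total-count scaling. Gpr180 went from 754 ± 14.3 to 648 ± 55.8 and fell by 0.22 (SE 0.081), and did not pass under total-count scaling, at -0.0041. Gpr108, the paralogue of Gpr107, was neither, at 1450.1, 1389.8 and 1395 and 1413, 1409.9 and 1492. The call on Gpr137 was lost without the first or the third DMSO library or the second P3FI-90 library, at 0.19 to 0.24. That on Gpr137b was lost without the third DMSO library, at -0.14. That on Gpr180 was lost without the first DMSO library or the first or the third P3FI-90 library, at -0.21 to -0.18.

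The other numbered Gpr genes numbered 66, of which 41 were detected and 16 tested. Of these 16, 7 rose, 4 fell and 5 were neither, beside 39.9% higher and 39.4% lower of all genes tested. Nothing is read from so few genes. Gpr19, an orphan, was read at 82.98, 84.3 and 65.3 in DMSO and 371, 409 and 376 after P3FI-90, and rose by 2.31 (SE 0.15), that is 4.97-fold. Gpr35, a receptor of gut and immune cells, had 11, 10 and 6 counts and 65, 81 and 81 counts, and rose by 2.86 (SE 0.36). Gpr3, which signals through Gs without an added ligand, had 28, 9 and 4 counts and 88, 93 and 77 counts, and rose by 2.46 (SE 0.45). Its 3 DMSO libraries differed more from each other than its P3FI-90 libraries did. Cd164l2, which overlaps Gpr3 on the opposite strand, rose too, by 3.98.

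Gpr176, an orphan of the circadian clock, had 8, 5 and 3 and 46, 44 and 13 counts and rose by 2.45 (SE 0.6). Gpr4, a proton sensor, had 2, 2 and 6 and 27, 24 and 11 counts and rose by 2.39 (SE 0.65). In both, the third P3FI-90 library lay under the other two. Gpr160 rose by 1.14 (SE 0.36) and Gpr157 by 0.84 (SE 0.27), and the call on Gpr157 was lost without the third DMSO library, at 0.72, or the second P3FI-90 library, at 0.68.

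Of the 4 that fell, Gpr39, a zinc-sensing receptor, and Gpr161, a ciliary receptor that holds back Hedgehog signalling, had the most counts. Gpr39 was read at 966, 847 and 942 and 556, 663 and 678 and fell by 0.54 (SE 0.089), but 39.0% of its windows recur in another gene, Lypd1 on the opposite strand. Gpr161 was read at 1140.5, 1018 and 1079.8 and 917, 853 and 851 and fell by 0.31 (SE 0.068). Gpr162 was read at 51.6, 26.5 and 72.5 and 19.6, 17.98 and 18.6 and fell by 1.43 (SE 0.4), with DMSO libraries that differed widely. Gpr135 went from 184 ± 24.2 to 124 ± 21.2 and fell by 0.57 (SE 0.19). Gpr161 and Gpr135 did not pass under total-count scaling, at -0.09 and -0.36. Gpr146 was neither, at 439, 396 and 375 and 434, 465 and 506 (adjusted p = 0.0725 by edgeR's quasi-likelihood test), and the call was gained without the first DMSO library, at 0.28, or the first P3FI-90 library, at 0.27.

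Prostanoid receptors, which bind prostaglandins, gave no call among the 2 tested. Ptger1 was read at 80.96, 40.9 and 82.7 in DMSO and at 119, 95.3 and 96.98 after P3FI-90, with a change of 0.59 (SE 0.27) (adjusted p = 0.057 by edgeR's quasi-likelihood test). It passed without the third DMSO library, at 0.75, and under 6 other alternatives, at 0.45 to 0.81. Of its windows 63.3% recur in another gene, so its count is uncertain. Ptger4, the EP4 receptor that acts through Gs, went from 158 ± 24.9 to 140.1 ± 14.3 with overlapping groups. Ptger3 and Ptgir were at 0, and Ptger2 had 5 counts, all after P3FI-90.

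Chemokine receptors guide leukocytes and metastasizing cells, and 4T1 cells held next to none of their transcripts. Of 16 members, 7 were at 0 in every library, Cxcr4 among them, and 8 more were under the filter. Only Ccr10, which binds the epithelial chemokines Ccl27 and Ccl28, was tested, at 11, 14 and 10 and 15, 9 and 8 counts with overlap. The class summed to between 22.3 and 33.7 normalized counts in DMSO and between 26.4 and 37.4 after P3FI-90. Of the 6 receptors for fatty acids and hydroxy acids, Hcar2 had 28 counts over the DMSO and 36 over the P3FI-90 libraries, and the other 5 were at 0. Gpr15lg, the secreted ligand, had 9, 0 and 0 counts in DMSO, all from 1 library, and 14, 30 and 14 after P3FI-90. It rose by 2.45 (SE 0.87), but the value was 7.18 without the first DMSO library, and the call was lost without the second or the third DMSO library or the second P3FI-90 library, at 1.94, 1.87 and 2.03.

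Among the 78 detected members under the filter, the P3FI-90 libraries lay wholly above the DMSO libraries in 16, wholly below in 1, and overlapped in 61. At 0 in all DMSO libraries only were 37, and at 0 in all P3FI-90 libraries only were 7. With at least 30 counts over the other group, 6 members of the family were at 0 in DMSO (P2ry14, Lpar3, Chrm1, Adgrv1, Adgrf2 and Adgre4) and 0 were at 0 after P3FI-90. The same counts over all genes under the filter are not given here. Of all 882 tested genes under 30 normalized counts, 333 were higher and 105 lower, so nothing is read from these splits. Gpr34, a lysophosphatidylserine receptor chosen here after its values were seen, had 0, 0 and 2 counts in DMSO and 24, 12 and 5 after P3FI-90, a ratio of 17.8 with a 95% counting interval from 4.63 to 152. The single member wholly below was the melanocortin receptor Mc3r, with 5, 4 and 2 counts in DMSO and 0 in every P3FI-90 library. With 3 libraries against 3, the exact two-sided permutation test cannot go below p = 0.1 for any single value.

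The plot of shares by class sets these opposite moves side by side. Of the protease-activated counts, F2r made up between 63.1% and 64.8% in the DMSO libraries and between 82.4% and 84.98% after P3FI-90. In the peptide class Bdkrb2 stayed dominant, with a mean of 98.2% and 93.2%. In all 4 classes of the plot the most counted receptor was the same gene in every library. Per kb of transcript, the highest group mean changed gene in the lysophospholipid and nucleotide classes. S1pr2 and Lpar2 were at 234 and 159 normalized counts per kb in DMSO, and at 221 and 259 after P3FI-90. P2ry2 and Adora1 were at 72.2 and 56.1 in DMSO, and at 31.8 and 63.1 after P3FI-90. In the nucleotide class, P2ry2 at 16.8% to 19.8% and P2ry12 at 14.02% to 18.5% overlapped in their shares after P3FI-90, where in DMSO P2ry2 had held at least 40.0% and P2ry12 at most 4.55%.

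**Figure D4:**
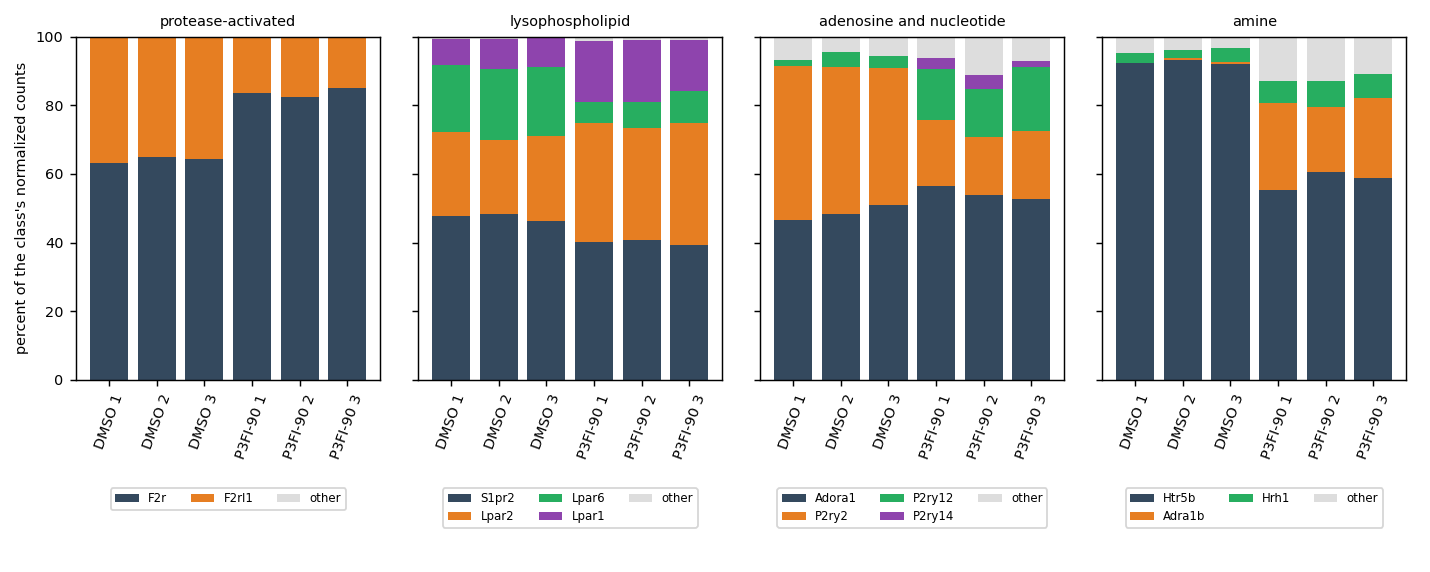
Stacked bars give the percent of the normalized counts of a receptor class that each named receptor held in each of the 6 libraries, for the protease-activated, lysophospholipid, adenosine and nucleotide, and amine classes, with all other members in light grey. F2rl1, Lpar6, P2ry2 and Htr5b take smaller shares in each P3FI-90 library than in each DMSO library, and Lpar1, P2ry12 and Adra1b take larger ones.

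The genes that carry the signal onward were read from lists written from general knowledge. Of 15 G alpha subunits 10 were tested, 2 rose, 3 fell and 5 were neither, with a median log2 fold change of -0.08. Gnai2, the alpha subunit of Gi with the most counts, went from 22428 ± 592 to 8350.1 ± 325 normalized counts and fell by 1.43 (SE 0.036), and Gnai3 fell by 0.68 (SE 0.038). Gna13, the alpha subunit of G13, went from 3209 ± 93.4 to 6172 ± 334 and rose by 0.94 (SE 0.044), and Gnao1 rose by 0.55 (SE 0.19), a call lost without the third library of either group, at 0.39 for DMSO and 0.48 for P3FI-90.

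The beta and gamma subunits moved mostly down, with 9 lower, 1 higher and 1 neither among 11 tested of 15, and a median of -0.63. Gng2 went from 2233 ± 95.7 to 585 ± 25.1 normalized counts and fell by 1.93 (SE 0.06), and Gng7 fell by 1.37 (SE 0.33). Gng3, a gamma subunit of neurons, was the exception at 7, 11 and 4 counts in DMSO and 116, 97 and 89 after P3FI-90, and rose by 3.55 (SE 0.38). Of 18 RGS genes 10 were tested, 6 fell, 0 rose and 4 were neither, with a median of -0.49. Rgs10 fell by 1.30 (SE 0.22) and Rgs19 by 1.09 (SE 0.056). For comparison, 39.9% of all genes tested were higher and 39.4% lower, with a median of 0.01.

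Receptor kinases and arrestins were split, with 3 higher and 3 lower among 6 tested. Arrb1 rose by 0.55 (SE 0.062) and Grk5 by 0.43 (SE 0.089), while Grk6 fell by 0.44 (SE 0.037) and Grk4 by 0.80 (SE 0.33), the call on Grk4 being lost without any of 5 libraries (all but the first P3FI-90 library, at -0.84 to -0.56). In the cyclic AMP arm 8 of 20 tested genes rose, 7 fell and 5 were neither, with a median of 0.07. The adenylyl cyclase Adcy9 rose by 1.41 (SE 0.15) and the cyclic AMP exchange factor Rapgef4 by 1.47 (SE 0.51), the latter at 13, 8 and 12 and 14, 47 and 44 counts and lost without the second DMSO library, at 1.36, or the second or the third P3FI-90 library, at 1.24 and 1.23. The kinase subunit Prkar2b fell by 1.33 (SE 0.046) and Rapgef3 by 0.79 (SE 0.082).

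In the phospholipase C and small GTPase arm 5 of 11 tested genes rose, 5 fell and 1 was neither, with a median of -0.05. Plcb4 rose by 1.2 (SE 0.084) and Prkca by 0.62 (SE 0.055), while Plcb3 went from 7583 ± 187 to 2582 ± 59.6 normalized counts and fell by 1.55 (SE 0.037), and the exchange factor Arhgef1 fell by 1.08 (SE 0.036). Of the makers and breakers of ligands, 7 of 16 tested genes rose and 9 fell, with a median of -0.43. Ptgs2, the inducible cyclooxygenase that starts prostaglandin synthesis, went from 7740.4 ± 122 to 15678 ± 575 and rose by 1.02 (SE 0.035), and Edn1, the endothelin precursor, rose by 0.95 (SE 0.12). Sphk1, which makes sphingosine-1-phosphate, went from 1445 ± 71.6 to 462 ± 13.8 and fell by 1.65 (SE 0.069), and the prostaglandin E synthase and chaperone partner Ptges3 fell by 1.24 (SE 0.046). The endothelin receptors Ednra and Ednrb had 13 and 0 counts over all libraries.

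**Figure D5:**
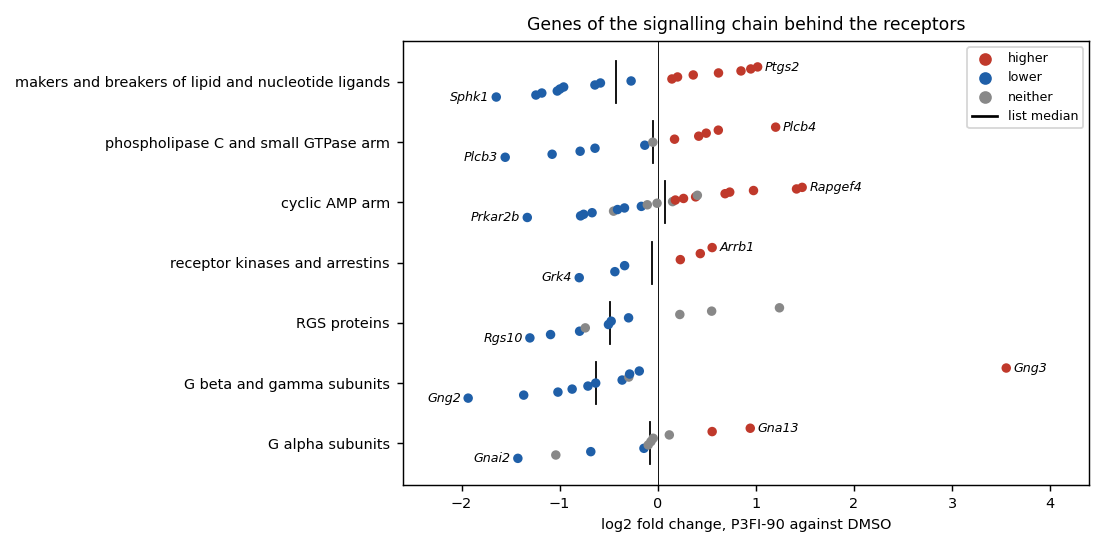
Fitted log2 fold changes (horizontal axis, P3FI-90 against DMSO) of the tested genes in 7 lists of the signalling chain, 1 point per gene, red where higher, blue where lower and grey where neither, with a black bar at each list's median and the largest rise and fall of each list named. The points of the beta and gamma subunits lie left of 0 except Gng3 at 3.55, and no RGS gene is red.

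The libraries held between 31327094 and 37395732 counts on named genes. The epithelial markers Krt7, Krt8, Krt18, Epcam and Cdh1 had at least 4278 counts in every library, and all 5 were lower after P3FI-90. The leukocyte markers summed to between 919 and 966 normalized counts in DMSO and between 593 and 742 after P3FI-90, mostly from Cd68, at 275 to 403 counts in every library, and Cd14, which fell by 1.24. Csf1r rose by 1.56 from at most 52 counts, Ptprc had at most 26 counts in a library, Cd3e and Itgam at most 4, and Lyz2 had 16 counts in the first DMSO library and 0 in the others. The fibroblast markers summed to between 1411 and 1441 and between 1001 and 1096, mostly from Pdgfra, at 973 to 1349 counts and lower by a log2 fold change of -0.50, with Col1a1 at 45 to 75 counts, Col1a2 at 9, 0 and 0 and 31, 4 and 32 counts, Dcn at most 3 and Lum at 0. The 4 endothelial markers summed to between 12.04 and 29.6 in DMSO and between 35.97 and 51.9 after P3FI-90. Pecam1 rose by 2.10 from 0, 0 and 13 counts to 20, 17 and 27, Tie1 had 10 to 26 counts and was neither, and Cdh5 and Kdr were at 0 in DMSO and at most 6 counts after. The 5 neural and muscle markers summed to between 9.19 and 122 and between 17.1 and 38.2, the highest sum coming from 96 counts of Acta1 in the first DMSO library, with Syp at 2 to 20 counts, Myh1 at most 7, Rbfox3 at most 2 and Snap25 at 0. The part of these levels in the rises of low receptors was not tested. The targeted demethylase gene Kdm3b was read at 2851 ± 67.4 in DMSO and 3109 ± 55.7 after P3FI-90, and rose by 0.13 (SE 0.043). That call was lost under upper-quartile scaling, at 0.09. It was also lost without the first DMSO library or the second or the third P3FI-90 library, at 0.11 to 0.12. The level of Kdm3b checks no label, since P3FI-90 acts on the protein.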

How the data were processed

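RNA of 4T1 cells given DMSO or P3FI-90, 3 libraries each, was prepared with an mRNA kit and sequenced by the authors, who deposited whole-number read counts per gene without normalization. The submitters' processing notes name CASAVA, HISAT2, StringTie and GRCm39 without versions; the counting tool and strandedness are not given in the sources used here. The 285 rows without a gene name (0.483% to 0.556% of the counts of a library) were left out, and 0 columns were unmapped. Counts of 2 outnumbered counts of 1 in each library, so both mates of a pair may have been counted. Intervals and bounds cover counting error only and take each count as independent. If both mates were counted, the intervals are too narrow and the bounds too high.

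The filterByExpr filter, TMM scaling and the quasi-likelihood test of edgeR 4.0.16 were run in R 4.3.3, with Benjamini-Hochberg adjustment over 12288 genes. The common biological coefficient of variation was 0.0648. The study used limma, but the unit is counts, so limma 3.58.1 was an alternative, as were DESeq2 1.42.0, 3 other scalings, 2 other filters, halved counts, a replicate block and single libraries left out. Adjusted p-values that DESeq2 gave as NA were left out. Equally numbered libraries did not deviate together (correlations -0.021, 0.015 and 0.0049), so no block was used. The test was checked on simulated counts.

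Members were matched by symbol, and 232 of 233 have a gene in GENCODE M21, which gave lengths, overlaps and shared windows. For members at 0 in a group the bound used 3 counts as that group's sum, and those with 1 to 3 counts were given a ratio with a Clopper-Pearson 95% interval. Named with values were members with at least 300 normalized counts in a group, the 12 largest rises and 12 largest falls without overlap, members at 0 in 1 group with at least 30 counts in the other, and tested members of 5 classes (lysophospholipid, prostanoid, nucleotide, protease-activated, chemokine). From each list, the 2 largest rises and 2 largest falls among called genes were named. Members, lists and tests were chosen with earlier results of these data known. Protein sequences were not used here. Some genes that these rules name are not reported here.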

Additional observations from a re-analysis of the deposited data

How the results depend on the processing

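The median log2 fold change of the tested members (0.28 as reported) moved most. It was 0.50 under total counts, 1.08 without a filter, -0.086 with at least 10 counts in every library, 0.21 with limma-voom, 0.18 with limma on log2(CPM + 1) and 0.073 with counts halved, and without single libraries it ranged from 0.35 to 0.73. Relative to all genes, it was 0.27 both as reported and under total counts. Members higher by more than 1 (21) numbered 32 without a filter, 7 with at least 10 counts in every library, 7 with limma on log2(CPM + 1), and 21 to 32 without single libraries. Members past 1 in either direction (28) numbered 14 with at least 10 counts in every library and 12 with limma on log2(CPM + 1). Members higher (28) numbered 15 with at least 10 counts in every library, since 47 members were then tested. Total counts gave 34 higher and 14 lower, so that 70.8% of calls were higher, against 59.6%.

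Of 1567 values of the 100 genes followed under 16 alternatives, 1487 kept their direction and side of the threshold, 50 lost and 18 gained the call, and 12 turned sign. Under total counts the change was 0.018 for Adgrg1, 0.11 for Adgrl1, 0.024 for Gpr137b, 0.13 for S1pr2 and 0.043 for Ptger4. Under upper quartiles it was -0.012 for Gpr108 and -0.0070 for Bdkrb2. Without single libraries it ranged from -0.024 to 0.089 for Bdkrb2, from -0.0050 to 0.043 for Gpr108 and from -0.073 to 0.28 for Gpr63. Of these only Gpr137b was called as reported. Total counts also gave calls on Adora1, Gpr108, Gpr146, Bdkrb2, S1pr2 and Ptger1, and lost those on Gprc5b, Gpr137b, Gpr180, Gpr161, Gpr135 and Grk4. The causes were not tested. With the replicate number as a block, 47 members were called, the same 28 higher and 19 lower, and the equal numbers mark no stated pairing. The calls on Grk4 and Rapgef4 were lost under the block, at -0.84 and 1.35. The depth limits what can be said of the 90 members at 0 and the 78 under the filter.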
